A study of Homo sapiens with 6 samples.

Results

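Sorting of receptors after endocytosis is often directed by short motifs in their cytoplasmic tails, and one class of such motifs binds PDZ domains, protein modules that recognise the extreme C terminus of a partner. The PDZ scaffolds NHERF1 and NHERF2 also hold a binding site for ezrin, radixin and moesin (the ERM proteins), which in turn bind cortical actin. A receptor, its scaffold and the cytoskeleton can thus be linked at the membrane. Described here are the 10 genes SLC9A3R1, SLC9A3R2, PDZK1, EZR, RDX, MSN, GIPC1, LIN7C, DLG1 and PICK1 in a genome-wide CRISPRi screen for opioid receptor abundance, out of 18905 genes with a phenotype. They were picked by gene name, as the sgRNA rows whose name before the strand sign is one of these symbols. No cut on a measured value was used, but earlier results of these data were known when the genes were chosen.

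The screen used a line of HEK293-FLP cells, human embryonic kidney cells that take up a transgene at a fixed recombination site, which express a delta opioid receptor fused to the APEX2 peroxidase and carrying the last residues of the mu opioid receptor, DOR-MRS(WT)-APEX2. All cells also carried dCas9-KRAB-BFP, an inactive Cas9 with a repressor domain that silences the start site to which an sgRNA directs it, and came from a clonal population. Cells of the top and of the bottom fluorescence quartile were treated alike: they were transduced at a multiplicity of about 0.2, selected with puromycin at 0.75 μg/ml for 3 days, grown for 8 days in all and given 10 μM of the opioid peptide DADLE for 90 min, as the labels state, before the reaction of APEX2 with 100 μM AMPLEX UltraRed (AUR), whose fluorescence reports receptor that has not reached the lysosome lumen. The methods of the study give another agonist time and another length of knockdown, whereas its results section also gives 8 days of knockdown. The sgRNA library was run as 3 sublibraries, H17, H23 and H456, and each gave 1 top quartile and 1 bottom quartile library, so that no group had a replicate.

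For each sgRNA, the phenotype was log2 of the top quartile share of reads over the bottom quartile share, centred on nontargeting control (NTC) sgRNAs by their median, so that a negative value means more cells with low AUR signal. Gene phenotypes are means of the sgRNAs that target the same start site. Top quartile libraries held 23426498 reads in H17, 47989659 in H23 and 29611047 in H456, against 28996259, 40946430 and 50486627 reads in the bottom quartile libraries of the same sublibraries. The central 90% of NTC sgRNAs lay between −0.76 and 0.48 in H17 (553 sgRNAs), between −0.45 and 0.41 in H23 (570) and between −0.45 and 0.46 in H456 (739). H17 held SLC9A3R2, RDX and PICK1, H23 held MSN, GIPC1 and DLG1, and H456 held SLC9A3R1, PDZK1, EZR and LIN7C. The library listed 120 sgRNAs against these genes, of which 59 were analysed. The other 61 had at most 4 reads in either library of their gene.

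CRISPRi sgRNAs are placed around start sites, next to the NGG motif (the PAM) that Cas9 needs. The bases before the annotated starts of SLC9A3R1, EZR and RDX are shown because these genes hold the 3 sgRNAs that fell outside the central 90% of the NTC sgRNAs, and they give the base composition before a start of an NHERF scaffold and of 2 ERM genes. The sequences are from RefSeq (GRCh38.p14), run 5′ to 3′ on the gene's strand over 250 bases before an annotated start, and have GG and CC, the PAM dinucleotide on either strand, in capitals. SLC9A3R1, listed by RefSeq as NHERF1, is shown at chr17:74748378-74748627 on the plus strand, EZR at chr6:158818236-158818485 on the minus strand and RDX at chr11:110296615-110296864 on the minus strand.
SLC9A3R1: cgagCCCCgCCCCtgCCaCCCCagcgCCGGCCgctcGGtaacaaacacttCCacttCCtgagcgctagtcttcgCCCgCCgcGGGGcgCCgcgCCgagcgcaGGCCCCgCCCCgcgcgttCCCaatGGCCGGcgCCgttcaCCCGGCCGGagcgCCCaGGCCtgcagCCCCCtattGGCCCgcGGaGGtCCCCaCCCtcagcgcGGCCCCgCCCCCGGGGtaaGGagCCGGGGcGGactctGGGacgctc
EZR: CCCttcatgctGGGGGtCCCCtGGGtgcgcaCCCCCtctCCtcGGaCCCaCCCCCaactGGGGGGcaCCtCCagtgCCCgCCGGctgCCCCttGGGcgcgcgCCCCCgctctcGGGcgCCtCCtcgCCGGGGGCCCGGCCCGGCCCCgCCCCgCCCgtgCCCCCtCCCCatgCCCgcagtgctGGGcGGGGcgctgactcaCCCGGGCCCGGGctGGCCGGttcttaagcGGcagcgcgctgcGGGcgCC
RDX: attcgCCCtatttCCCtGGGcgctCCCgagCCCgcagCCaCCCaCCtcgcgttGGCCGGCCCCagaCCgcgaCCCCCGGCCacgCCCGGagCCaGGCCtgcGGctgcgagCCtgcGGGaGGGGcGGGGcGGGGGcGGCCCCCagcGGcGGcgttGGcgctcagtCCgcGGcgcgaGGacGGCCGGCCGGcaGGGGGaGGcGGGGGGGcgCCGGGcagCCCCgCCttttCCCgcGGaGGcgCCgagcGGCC
These windows held 79 (SLC9A3R1), 94 (EZR) and 87 (RDX) PAMs, with NGG searched on both strands and overlapping matches counted, and 77.6%, 80.8% and 82.0% G and C. Across 35116 RefSeq windows of this length, 99.99% held at least 1 PAM, and the median was 48. The 17 windows of the 10 genes, all of which matched by symbol, held 12 to 94. The sequences of the sgRNAs themselves and the genome build of their positions are not given in the sources used here, so where they sit in these windows was not determined.

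None of the 10 genes passed an adjusted P of 0.05 in either direction, where 0.476% of all genes did (72 of them negative, 0.381%, and 18 positive, 0.0952%). None passed an unadjusted exact P of 0.05 either, against 8.12% of all genes (4.05% negative, 4.07% positive). The test was an exact two-sided Mann-Whitney test that ranked the sgRNAs of a gene among the NTC sgRNAs of the same sublibrary, and P was adjusted over all genes by the Benjamini-Hochberg method. It compares the 2 libraries of one sort with sgRNAs as units, and so does not measure the spread between experiments. The phenotypes of the 10 genes ran between −0.15 for RDX and 0.15 for SLC9A3R2, with a median of −0.06, against a median of 0.0013 over all genes. Of the 10 genes, 8 (80.0%) were below 0, against 49.6% of all genes, and the lowest adjusted P was 0.780. The median size of their phenotypes, taken without sign, was 0.0686, against 0.0950 over all genes.

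**Figure D1:**
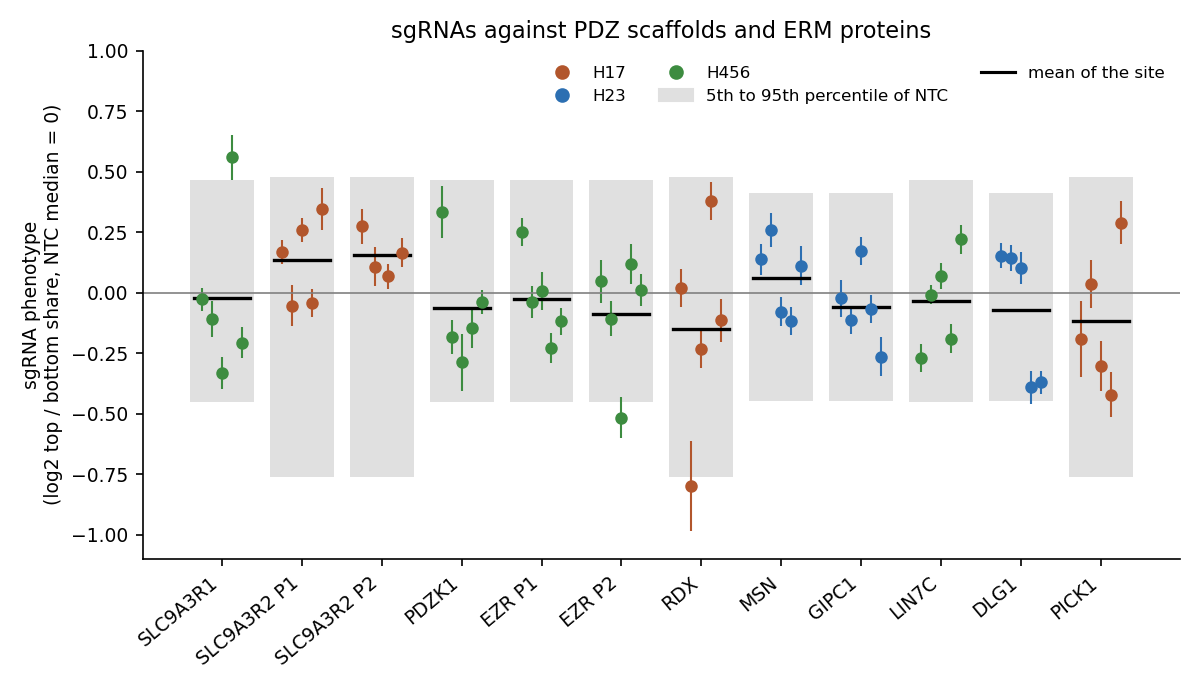
Phenotype of each of the 59 analysed sgRNAs (y axis, log2 of the top over the bottom share with the NTC median at 0) by gene and start site (x axis). Points are coloured by sublibrary with bars of 1 counting SD, black lines are means of a site, and grey boxes are the 5th to 95th percentiles of the NTC sgRNAs of that sublibrary. All but 3 points, one each of SLC9A3R1, EZR P2 and RDX, lie inside the boxes.

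SLC9A3R1 encodes NHERF1 (EBP50), a scaffold with a pair of PDZ domains and an ERM-binding tail that recycles the β2-adrenergic receptor and binds the kappa opioid receptor. Its 5 sgRNAs, in order of position, had 1494, 581, 704, 446 and 739 reads in the top quartile, against 2592, 1066, 1509, 515 and 1451 reads in the bottom quartile. The phenotypes were −0.03, −0.11, −0.33, 0.56 and −0.21, so that 4 were below 0 and the fourth lay above the 95th percentile of the NTC sgRNAs. The mean was −0.02 ± 0.35 (SD over 5 sgRNAs), with an exact Mann-Whitney P of 0.443 and an adjusted P of 0.898.

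SLC9A3R2 encodes NHERF2, a scaffold of the same build, and was targeted at 2 start sites, called P1 and P2 in the library. The 4 sgRNAs of P2 had 811, 602, 1407 and 1167 reads in the top quartile, against 833, 694, 1667 and 1292 in the bottom quartile, with phenotypes of 0.27, 0.11, 0.07 and 0.17. All 4 analysed sgRNAs of this site were above 0. Its mean was 0.15 ± 0.09 (SD over 4 sgRNAs), with an exact P of 0.160 and an adjusted P of 0.780. The 5 sgRNAs of P1 had 1583, 511, 1662, 1138 and 554 reads in the top quartile, against 1749, 659, 1727, 1457 and 541 in the bottom quartile. Their phenotypes were 0.17, −0.05, 0.26, −0.04 and 0.35, with a mean of 0.14 ± 0.18 (SD over 5 sgRNAs; exact P = 0.200). Of the 9 sgRNAs at both sites, 7 were above 0, and 82.5% of the genes of H17 had a lower phenotype than the P2 site. A further P2 sgRNA had 4 reads in the top quartile and 0 in the bottom quartile and was left out by the minimum of 50 reads.

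PDZK1 encodes a scaffold with several PDZ domains that is best known at the apical membrane of kidney and liver cells. Its 5 sgRNAs had 322, 633, 221, 488 and 1359 reads in the top quartile, against 435, 1224, 459, 920 and 2374 in the bottom quartile. The first had a phenotype of 0.33, and the others were below 0, at −0.18, −0.29, −0.15 and −0.04. The mean of −0.06 ± 0.24 (SD over 5 sgRNAs) had an exact P of 0.360.

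The ERM proteins share a FERM domain that binds the membrane and its proteins and a C-terminal actin-binding region. EZR (ezrin) was targeted at 2 start sites. The sgRNAs of P2 had 428, 606, 407, 492 and 757 reads in the top quartile, against 705, 1111, 991, 771 and 1279 in the bottom quartile, and phenotypes of 0.05, −0.11, −0.52, 0.12 and 0.01. The third, the only one of this site on the minus strand, lay below the 5th percentile of the NTC sgRNAs, and the mean was −0.09 ± 0.25 (SD over 5 sgRNAs; exact P = 0.589, or 0.931 after adjustment). At P1, the top quartile had 1059, 764, 530, 826 and 1006 reads, against 1513, 1335, 898, 1647 and 1859 in the bottom quartile. The phenotypes there were 0.25, −0.04, 0.01, −0.23 and −0.12, with a mean of −0.03 ± 0.18 (SD over 5 sgRNAs; exact P = 0.694).

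RDX (radixin) had the lowest phenotype of the 10 genes. Its sgRNAs had 629, 87, 566, 685 and 467 reads in the top quartile, against 771, 188, 827, 654 and 628 in the bottom quartile, and phenotypes of 0.02, −0.80, −0.23, 0.38 and −0.11. The second was both the lowest of all 59 phenotypes and the least covered sgRNA, with a counting SD of 0.19 against a median of 0.0690 over the 59. The mean of −0.15 ± 0.43 (SD over 5 sgRNAs) had an exact P of 0.535 and an adjusted P of 0.919, and 17.4% of the genes of H17 lay lower.

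MSN (moesin) was the ERM gene with a positive mean. Its sgRNAs had 1121, 1017, 1296, 1326 and 732 reads in the top quartile, against 859, 716, 1153, 1213 and 571 in the bottom quartile. The phenotypes of 0.14, 0.26, −0.08, −0.12 and 0.11 gave a mean of 0.06 ± 0.16 (SD over 5 sgRNAs; exact P = 0.522). The sgRNAs against each of the 3 ERM genes thus lay on both sides of the NTC median.

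**Figure D2:**
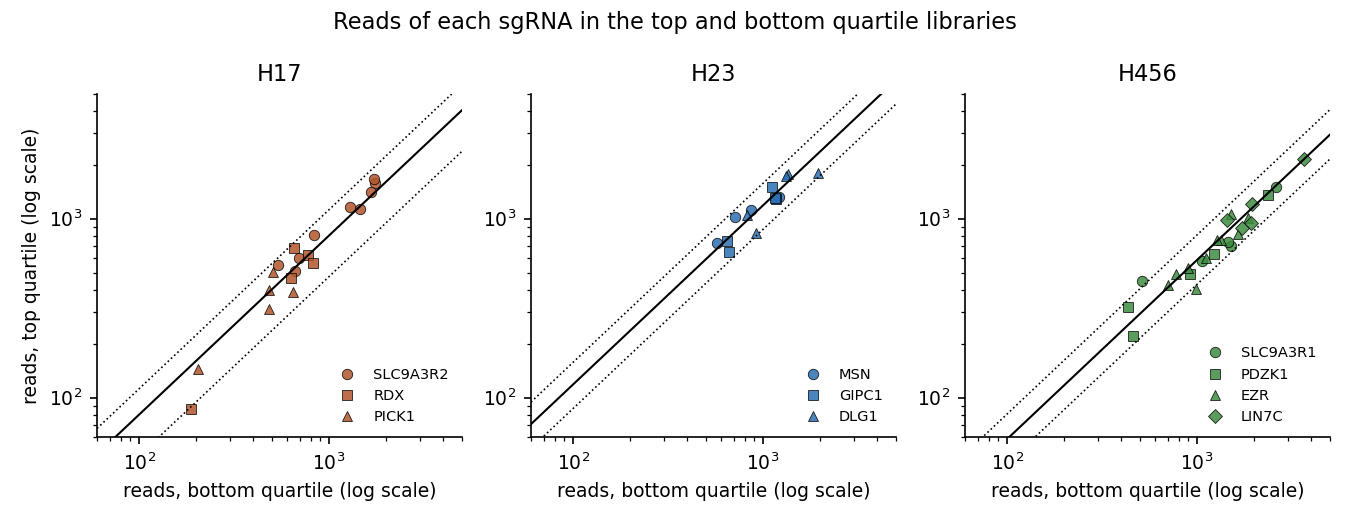
Reads of each sgRNA in the top (y axis) and bottom (x axis) quartile libraries, both on log scales, with a panel for each sublibrary and a symbol for each gene. The solid line is the NTC median and the dotted lines are the 5th and 95th NTC percentiles; the RDX point with 87 top and 188 bottom reads lies at the lower left of the H17 panel.

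GIPC1 encodes a PDZ protein that links cargo such as the D2 and D3 dopamine receptors to the endosomal motor myosin VI. The top quartile held 755, 1284, 1495, 1307 and 655 reads of its sgRNAs, against 647, 1171, 1119, 1154 and 663 in the bottom quartile. The phenotypes of −0.02, −0.11, 0.17, −0.07 and −0.26 had a mean of −0.06 ± 0.16 (SD over 5 sgRNAs; exact P = 0.535). All 5 were inside the central 90% of the NTC sgRNAs.

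LIN7C and DLG1 encode scaffolds of polarity and junction complexes. LIN7C is a small single-PDZ protein that acts with CASK in the basolateral placement of membrane proteins, and one of its sgRNAs had the most reads of all 59. They had 942, 2145, 1200, 891 and 986 reads in the top quartile, against 1932, 3672, 1948, 1731 and 1440 in the bottom quartile. Their phenotypes were −0.27, −0.01, 0.07, −0.19 and 0.22, with a mean of −0.04 ± 0.20 (SD over 5 sgRNAs; exact P = 0.738).

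DLG1 (SAP97) is a membrane-associated guanylate kinase that has been linked to recycling of the β1-adrenergic receptor. Its sgRNAs had 1783, 1722, 1048, 832 and 1793 reads in the top quartile, against 1351, 1314, 823, 920 and 1953 in the bottom quartile. The phenotypes were 0.15, 0.14, 0.10, −0.39 and −0.37, so that the first 3 along the chromosome were above 0 and the last 2, which lie 26 bases apart on the minus strand, were below 0. The mean was −0.07 ± 0.28 (SD over 5 sgRNAs; exact P = 0.720), and none of the 5 was outside the central 90% of the NTC sgRNAs.

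PICK1 pairs a PDZ domain with a membrane-bending BAR domain and is best known for the trafficking of AMPA receptors. It had 144, 397, 314, 390 and 501 reads in the top quartile, against 204, 481, 481, 649 and 509 in the bottom quartile. The phenotypes of −0.19, 0.04, −0.30, −0.42 and 0.29 had a mean of −0.12 ± 0.28 (SD over 5 sgRNAs; exact P = 0.460, or 0.904 after adjustment). In H17, 21.6% of genes lay lower.

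The intervals of the 10 genes were widest for RDX and narrowest for GIPC1. The shift of the sgRNAs of a gene against the NTC sgRNAs, with its exact 95% interval over sgRNAs, was −0.09 (−0.30 to 0.22) for SLC9A3R1, 0.15 (−0.06 to 0.42) for SLC9A3R2 at P2 and −0.10 (−0.29 to 0.15) for PDZK1. Among the ERM genes it was −0.05 (−0.31 to 0.14) for EZR at P2, −0.10 (−0.44 to 0.23) for RDX and 0.06 (−0.14 to 0.26) for MSN. Every interval included 0. GIPC1 had −0.06 (−0.26 to 0.14), LIN7C −0.04 (−0.25 to 0.17), DLG1 −0.05 (−0.34 to 0.20) and PICK1 −0.12 (−0.39 to 0.20). These intervals take sgRNAs as units and hold for this one sort. Knockdown of each gene was not measured, and neither were its transcript levels in this line, so a phenotype near 0 does not show that a protein was lost without effect. In this reporter, APEX2 follows the added mu opioid receptor residues, so the C terminus of the receptor was not free. Whether PDZ domains bind this receptor was not tested.

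The Retromer subunits give a scale within H23, the sublibrary of MSN, GIPC1 and DLG1, whereas the other 7 genes were measured in other libraries. VPS29 had −1.60 ± 0.46 (SD over 6 sgRNAs), an exact Mann-Whitney P of 9.2e-09 after adjustment and an interval of −1.96 to −1.22. The interval of VPS35, whose mean was −0.85 ± 0.75, ran from −1.43 to −0.25, and that of VPS26A, whose mean was −0.71 ± 0.92, from −1.02 to −0.02. By the exact Mann-Whitney test, P was 0.0099 for VPS35 and 0.0375 for VPS26A, or 0.381 and 0.572 after adjustment. For each of them, 4 of 5 sgRNAs had a negative phenotype. The paper counts both among its screen hits, by a cut on effect and P set against groups of control sgRNAs. It also reports that knockdown of either one by small interfering RNA increased loss of this receptor after agonist. A gene can thus miss the adjusted cut used here and still affect this receptor when knocked down.

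**Figure D3:**
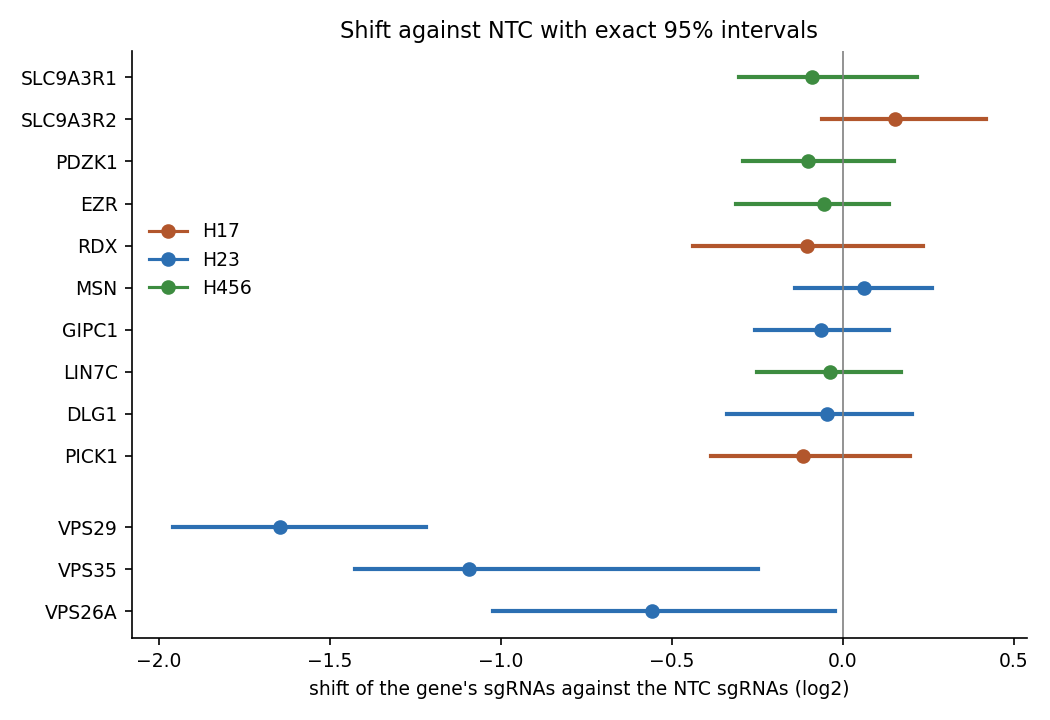
Shift of the sgRNAs of each gene against the NTC sgRNAs (x axis, log2) with exact 95% intervals over sgRNAs, coloured by sublibrary, for the 10 genes and below them VPS29, VPS35 and VPS26A. All 10 intervals cross 0 and lie between −0.44 and 0.42, and that of VPS29 ends at −1.22. The intervals of VPS35 (−1.43 to −0.25) and VPS26A (−1.02 to −0.02) overlap some of the 10.

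Taken one by one, 56 of the 59 sgRNAs lay inside the central 90% of the NTC sgRNAs. Below it were 2 (3.39%), the third sgRNA of EZR P2 and the second of RDX, against 5.04% of all 101317 targeting sgRNAs. Above it was 1 (1.69%), the fourth of SLC9A3R1, against 4.96% of all. Phenotypes were below 0 for 32 sgRNAs (54.2%), against 48.9% of all targeting sgRNAs. The SD over sgRNAs of the 10 genes was 0.30 in H17, 0.20 in H23 and 0.23 in H456, against 0.47, 0.28 and 0.30 for the NTC sgRNAs of the same sublibraries. For all targeting sgRNAs it was 0.398 in H17, 0.297 in H23 and 0.313 in H456.

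Neighbouring sgRNAs were compared as pairs. Among sgRNAs on the same strand within 20 bases of each other, whose targets overlap or nearly overlap, there were 13 pairs in 6 of the genes, and 10 of these pairs (76.9%) had opposite signs. The share was 47.8% (22 of 46) for same-strand pairs of the 10 genes farther apart, and over all genes 47.0% for near pairs and 48.3% for others. Pairs share sgRNAs, so these shares are a description with no test. Several of the pairs with opposite signs held an sgRNA within 1 counting SD of 0, whose sign its reads do not settle. An example is the third of EZR P1, at 0.0066 with a counting SD of 0.079. The pairs named next were picked as those with the largest differences of the 13. In SLC9A3R1, the fourth and the fifth sgRNA, 4 bases apart, had 0.56 and −0.21, a difference of 0.77 with a counting SD of 0.11. In RDX, the first and the second, 12 bases apart, had 0.02 and −0.80, and the fourth and the fifth, also 12 bases apart, had 0.38 and −0.11. The first and the second of PDZK1, at the same distance, had 0.33 and −0.18. In 7 of the 13 pairs the difference was over 2 counting SDs. The median difference of the 13 pairs was 0.226, against 0.221 for the 46 same-strand pairs of the 10 genes that lie farther apart, and over all genes it was 0.241 for 21512 near and 0.246 for 86483 farther same-strand pairs. Counting SDs cover the sampling of reads only, and reads amplified over 27 PCR cycles without molecular identifiers are not independent molecules.

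**Figure D4:**
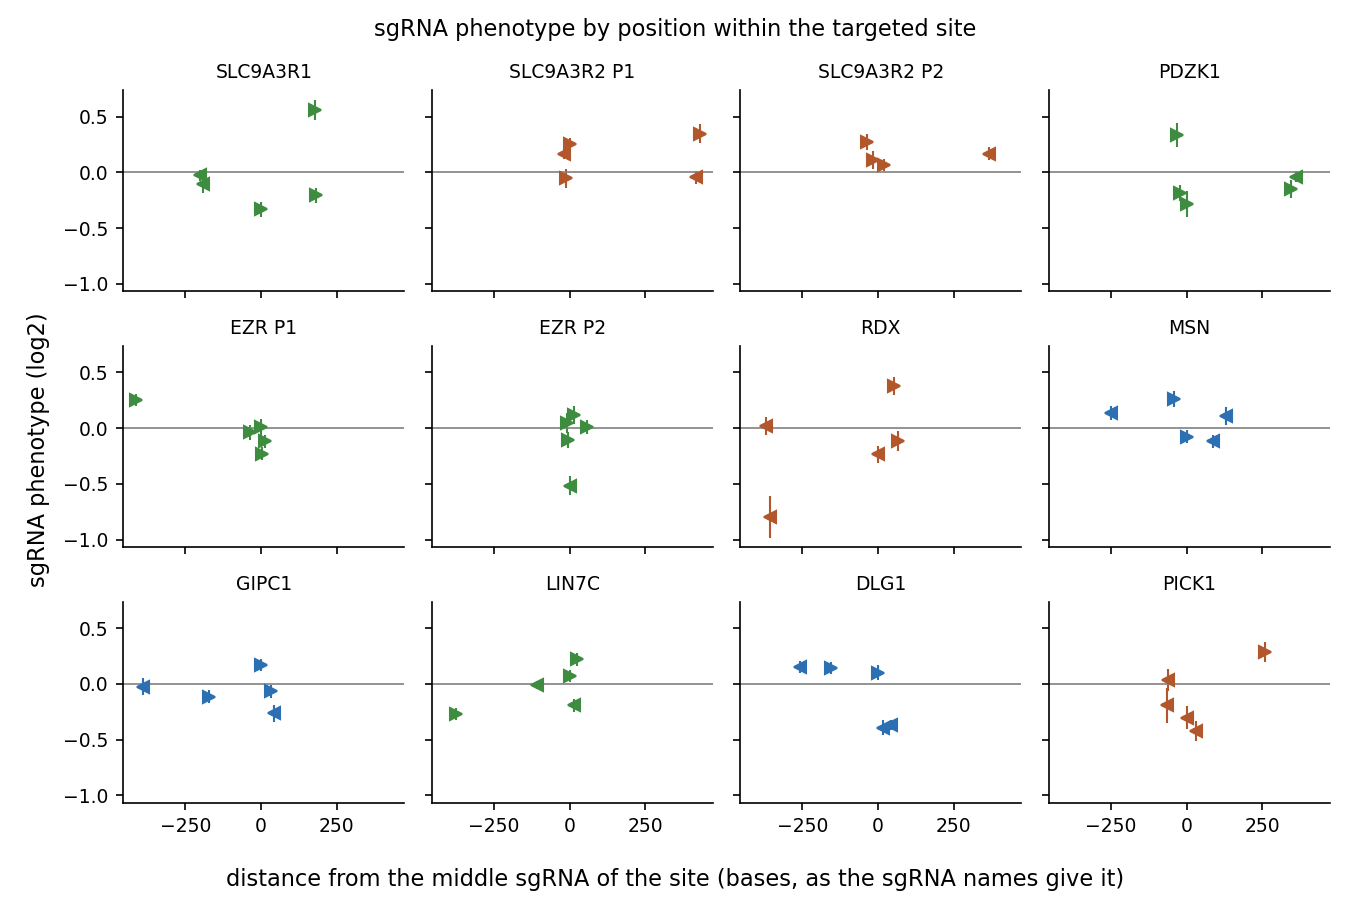
Phenotype of each sgRNA (y axis, log2, bars of 1 counting SD) by its distance in bases from the middle sgRNA of its start site (x axis), with a panel for each gene and start site and triangles pointing right for the plus and left for the minus strand. Close neighbours in the SLC9A3R1, RDX and PDZK1 panels lie on opposite sides of 0.

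No sgRNA of these genes was listed with the same reads under another gene. Of their 119438 reads over all libraries, 616 (0.516%) came from libraries of a sublibrary other than their own, against 0.587% for the NTC sgRNAs, and by gene the share was between 0.234% for GIPC1 and 1.08% for RDX.

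Other PDZ scaffolds ran from −0.41 to 0.22, a range over more genes than the 10. The SD over genes was 0.126, against 0.0888 for the 10 genes and 0.175 over all genes. Of 41 other PDZ scaffolds, all measured, 23 were below 0 and 18 above, the median was −0.02 and none passed an adjusted P of 0.05. At an unadjusted exact P of 0.05, 2 passed, both above 0. They were PARD6B, a subunit of the PAR polarity complex, with 0.22 ± 0.18 (SD over 5 sgRNAs; exact P = 0.0356, or 0.559 after adjustment), and MPP5 (PALS1), a scaffold of the Crumbs complex, with 0.21 ± 0.16 (SD over 5 sgRNAs; exact P = 0.0419, or 0.585 after adjustment). CASK, a partner of LIN7C, was lowest at −0.41 ± 0.66 (SD over 5 sgRNAs; exact P = 0.157), and was singled out after its value was seen. The junction scaffold MAGI1 had −0.18 ± 0.15 (SD over 5 sgRNAs; exact P = 0.0605). SNX27, the sorting nexin that couples PDZ-binding cargo to Retromer, had 0.19 ± 0.22 (SD over 5 sgRNAs; exact P = 0.0832, or 0.681 after adjustment), with a shift interval of −0.03 to 0.41 that included 0.

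Of 17 ERM kinases and cortical linkers, all measured, 10 were below 0 and 7 above, with a median of −0.03, and again none passed an adjusted P of 0.05. At an unadjusted exact P of 0.05, 1 passed below 0 and 1 above, and the values of the one above are not reported here. The one below was FRMD4A, a FERM domain protein of epithelial polarity, with −0.22 ± 0.06 (SD over 5 sgRNAs, all below 0; exact P = 0.0122, or 0.392 after adjustment). These values are of the start site with the lowest P among its 3 sites, and P was not corrected for that choice. Its other sites are not described here. CD44, a transmembrane ligand of ERM proteins, had −0.33 ± 0.56 (SD over 5 sgRNAs; exact P = 0.131). NF2, which encodes the ERM relative merlin, had 0.05 ± 0.30, and MYO6, the myosin VI partner of GIPC1, had −0.01 ± 0.18 (SD over 5 sgRNAs each; exact P = 0.662 and 0.957).

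**Figure D5:**
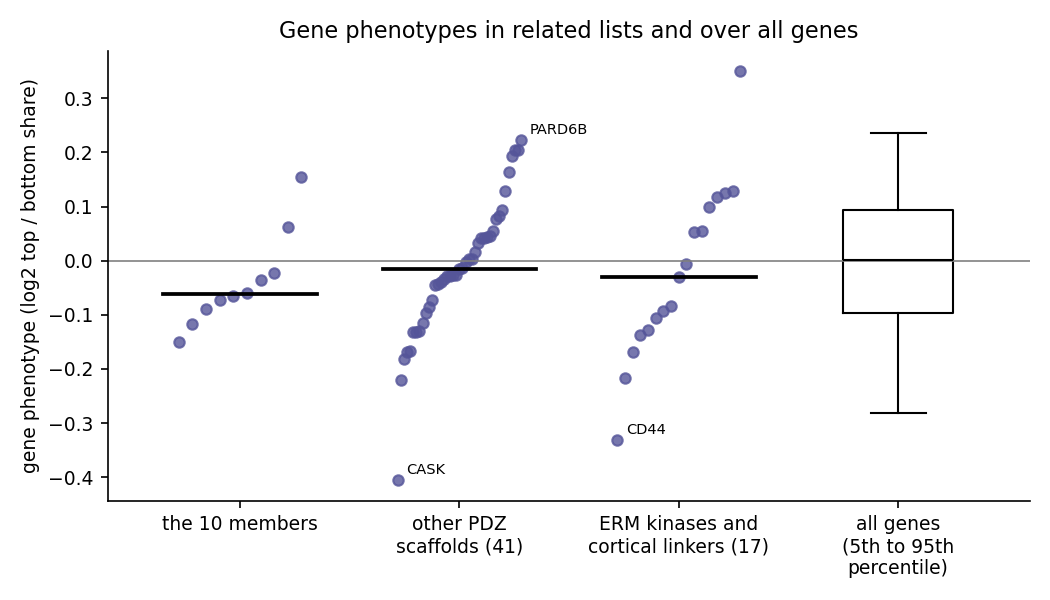
Gene phenotypes (y axis, log2) of the 10 genes, of 41 other PDZ scaffolds and of 17 ERM kinases and cortical linkers, each point a gene in order of its value and each black line a median, beside a box of all 18905 genes with quartiles and whiskers at the 5th and 95th percentiles. The 10 genes lie between −0.15 and 0.15, and the named points are CASK and PARD6B and, in the ERM list, CD44.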

How the data were processed

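The authors amplified integrated sgRNAs from genomic DNA of sorted cells with 27 PCR cycles, cropped the reads and counted them per sgRNA with ScreenProcessing. The deposited values are raw read counts, not normalized, for 209070 sgRNAs in each of 6 libraries, of which 104553 had reads. Groups were taken from the sample titles, because library names carry a letter that contradicts them.

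Each gene was assigned to the sublibrary where most of its sgRNAs with at least 50 reads had most reads, and sgRNAs with under 10% of their reads there were left out (457 sgRNAs). sgRNAs needed 50 reads in at least one library of the sublibrary. Shares were taken over the analysed reads, and sgRNAs absent from one library had 1 added in both. A start site needed 2 sgRNAs, and for 1576 genes with several sites the site of lower P was kept, with no correction for that choice. With 1 library per group, edgeR and similar count models have no residual degrees of freedom; edgeR 4.0.16 (R 4.3.3) served for TMM centring only. The exact Mann-Whitney test was computed with numpy 2.4.6 and scipy 1.17.1 and was tested on simulated data with 200 changed genes. Intervals of the shift were those shifts that the exact test does not reject at 95%.

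The genes and lists were chosen with earlier results of these data known. Named were all 10 genes, from each other list up to 3 genes with the lowest P plus SNX27, MYO6 and NF2 (none passed an adjusted P of 0.05), and VPS29, VPS35 and VPS26A for scale. Results of some further genes that this rule names are not reported here. CASK was named after its value was seen. The 12 alternatives were other read minimums, pseudocounts, centrings, gene summaries, pooled start sites and olfactory receptor sgRNAs in place of NTC sgRNAs.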

Additional observations from a re-analysis of the deposited data

How the results depend on the processing

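None of the 10 genes passed an adjusted P of 0.05 under any of the 12 alternatives, and the lowest adjusted P of any was 0.574. At an unadjusted exact P of 0.05 the count was 1 in place of 0 when 1 read in either library sufficed: SLC9A3R2 then had a phenotype of 0.65 (exact Mann-Whitney P = 0.0387), because the sgRNA with 4 top and 0 bottom reads entered. Of 120 gene values, 114 kept their sign. The start site of lower P was picked anew in each alternative that kept sites apart. Without the strongest sgRNA, EZR was therefore taken at P1 (−0.0945) in place of P2, so its sign under that alternative does not describe P2. With the median over sgRNAs, EZR had 0.0107 and DLG1 0.10; with the mean of the 3 strongest sgRNAs, SLC9A3R1 had 0.00705; without the strongest sgRNA, RDX had 0.0124, LIN7C 0.0226 and DLG1 0.00719. Leaving that sgRNA out also moved SLC9A3R1 to −0.17 (exact Mann-Whitney P = 0.0903), PDZK1 to −0.16 (exact Mann-Whitney P = 0.0820), MSN to 0.0132, GIPC1 to −0.00845 and PICK1 to −0.04. In SLC9A3R1 and PDZK1 the sgRNA left out was the only one above 0. It was picked by the values under test and the NTC sgRNAs were not trimmed, so nothing is concluded from these P values. The median over the 10 genes ran from −0.07 to −0.00063, that of the other PDZ scaffolds from −0.03 to −0.0066 and that of the ERM kinases and cortical linkers from −0.09 to −0.02. Over all genes, 90 passed an adjusted P of 0.05, against 22 without the strongest sgRNA, 50 with olfactory receptor sgRNAs as the comparison set and up to 94 otherwise. No paired analysis was possible because each quartile of a sublibrary has 1 library, and for the same reason no replicate could be left out. The depth of 87 to 2145 reads in the top and 188 to 3672 reads in the bottom quartile gave counting SDs of 0.0392 to 0.187 per sgRNA.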
